A study of Mus musculus with 18 samples.

Results

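The cyclins, the kinase Cdk1 and the Cdk inhibitors are the core of the machinery that drives and brakes the cell cycle, and 10 of their genes were followed here among the 51826 features of a ribosome profiling dataset. The members were chosen by gene identifier: the D-type cyclins Ccnd1, Ccnd2 and Ccnd3, the later cyclins Ccne1, Ccna2 and Ccnb1, the kinase Cdk1, and the inhibitors Cdkn1a, Cdkn1b and Cdkn2a. Every one of the 10 was measured in all 18 libraries and passed the filter on low counts, which left 13701 features for testing. Symbols come with the gene set, since the files give only Ensembl identifiers; all 10 symbols were found once in the RefSeq annotation.

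The cells were E14 mouse embryonic stem cells, a line that can be kept as stem cells or left to differentiate as aggregates called embryoid bodies. The mutant lines were Quaking KO and Sam68 KO, each lacking an RNA-binding protein of the STAR family, and WT cells were the comparison; each line was profiled at day 10 of embryoid body differentiation and at day 0, with 3 libraries per group. All cells were treated with cycloheximide, which stalls ribosomes on the mRNA, so a level is the number of ribosome-protected fragments of a gene relative to all those of its library (counts per 1000000, CPM), scaled for composition. It combines mRNA amount and translation, and no measurement of mRNA was used here. Neither the number of clones behind a knockout nor separate cultures behind the replicates are given in the labels, so that p-values measure the spread between these libraries, which may be technical. Within the embryoid bodies, fewer cells of a type and fewer footprints per cell cannot be told apart. The knocked-out genes and the markers of cell types could not be checked, because no table used here pairs the other identifiers with names.

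As background, cyclins are regulatory subunits that activate cyclin-dependent kinases. D-type cyclins pair with Cdk4 and Cdk6 and phosphorylate the retinoblastoma protein in G1, cyclin E pairs with Cdk2 at the entry into S phase, cyclin A acts in S and G2, and cyclin B with Cdk1 drives mitosis. Inhibitors of the Cip/Kip family (the products of Cdkn1a and Cdkn1b) bind cyclin-Cdk complexes, and those of the Ink4 family bind Cdk4 and Cdk6. Mouse embryonic stem cells are known for a short G1 phase and high cyclin E-Cdk2 activity, and G1 lengthens when they differentiate.

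The stretches before the annotated transcription starts of 5 starts in 4 genes are shown because they belong to the mitotic pair Ccnb1 and Cdk1, to the S phase cyclin gene Ccne1, which fell between the days in every line, and to the inhibitor gene Cdkn1a, which was lower in Quaking KO than in WT at day 10. Each is the 250 bases before the start in the direction of the gene, from RefSeq with the build GRCm38.p6; promoter windows were matched for 7 of the 10 members. Capitals mark matches on either strand to the CCAAT box (CCAAT, or ATTGG in the other direction), the cell cycle genes homology region or CHR (TTTGAA), the E2F motif in the forms TTTCGCGC and TTTGGCGC, TATAA, and the p53 half-site; no 2 matches overlap in these stretches.
Ccnb1, chr13:100786487-100786736, minus strand: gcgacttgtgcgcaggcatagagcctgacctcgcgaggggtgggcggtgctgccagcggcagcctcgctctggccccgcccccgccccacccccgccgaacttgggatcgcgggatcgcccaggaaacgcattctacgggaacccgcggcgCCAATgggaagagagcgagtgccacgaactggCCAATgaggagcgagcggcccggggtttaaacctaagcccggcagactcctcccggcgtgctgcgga
Cdk1, chr10:69352913-69353162, minus strand: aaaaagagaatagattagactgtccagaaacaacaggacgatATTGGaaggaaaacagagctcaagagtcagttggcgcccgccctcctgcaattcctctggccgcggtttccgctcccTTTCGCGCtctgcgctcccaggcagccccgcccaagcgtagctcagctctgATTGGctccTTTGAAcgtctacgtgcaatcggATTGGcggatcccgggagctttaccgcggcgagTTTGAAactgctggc
Ccne1, chr7:38107491-38107740, minus strand: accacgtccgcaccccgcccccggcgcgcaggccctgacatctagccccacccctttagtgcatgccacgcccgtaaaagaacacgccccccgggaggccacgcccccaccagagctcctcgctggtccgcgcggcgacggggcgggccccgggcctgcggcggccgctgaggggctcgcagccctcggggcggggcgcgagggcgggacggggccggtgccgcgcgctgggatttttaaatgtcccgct
Cdkn1a, start 1, chr17:29090729-29090978, plus strand: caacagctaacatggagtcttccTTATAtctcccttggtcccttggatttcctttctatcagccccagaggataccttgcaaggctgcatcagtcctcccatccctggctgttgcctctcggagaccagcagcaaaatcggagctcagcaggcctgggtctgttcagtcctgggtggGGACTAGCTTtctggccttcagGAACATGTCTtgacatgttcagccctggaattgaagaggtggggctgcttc
Cdkn1a, start 2, chr17:29093519-29093768, plus strand: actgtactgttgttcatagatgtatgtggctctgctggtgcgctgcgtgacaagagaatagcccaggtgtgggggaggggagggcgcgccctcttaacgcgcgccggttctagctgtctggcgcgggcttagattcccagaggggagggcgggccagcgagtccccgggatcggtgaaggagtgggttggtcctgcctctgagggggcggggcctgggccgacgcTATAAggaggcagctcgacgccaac

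The Ccnb1 stretch holds 2 CCAAT boxes, which begin 99 and 67 bases before the start. The Cdk1 stretch holds 3 CCAAT boxes, 2 CHR matches and 1 E2F match, TTTCGCGC. Among 32851 RefSeq windows of the same length, 33.8% hold a CCAAT box, 10.1% hold 2 or more, 16.0% hold a CHR match and 0.256% hold TTTCGCGC. The first Cdkn1a start has 2 p53 half-site matches, where 7.13% of windows hold at least 1, and a TATAA match on the opposite strand. The second Cdkn1a start has TATAA 25 bases before the start, a motif found in 22.8% of windows. How many windows hold 2 or more CHR matches, or 2 or more half-sites at any spacing, was not counted. The Ccne1 stretch holds none of the letters searched, nor do those of Cdkn2a (2 starts) and the first start of Ccnd3. TTTGGCGC is found in 0.417% of windows and in no member's stretch. Cdkn1b holds 2 CCAAT boxes and the second start of Ccnd3 holds 1. A match describes the letters of a window and says nothing of whether a factor binds there.

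**Figure D1:**
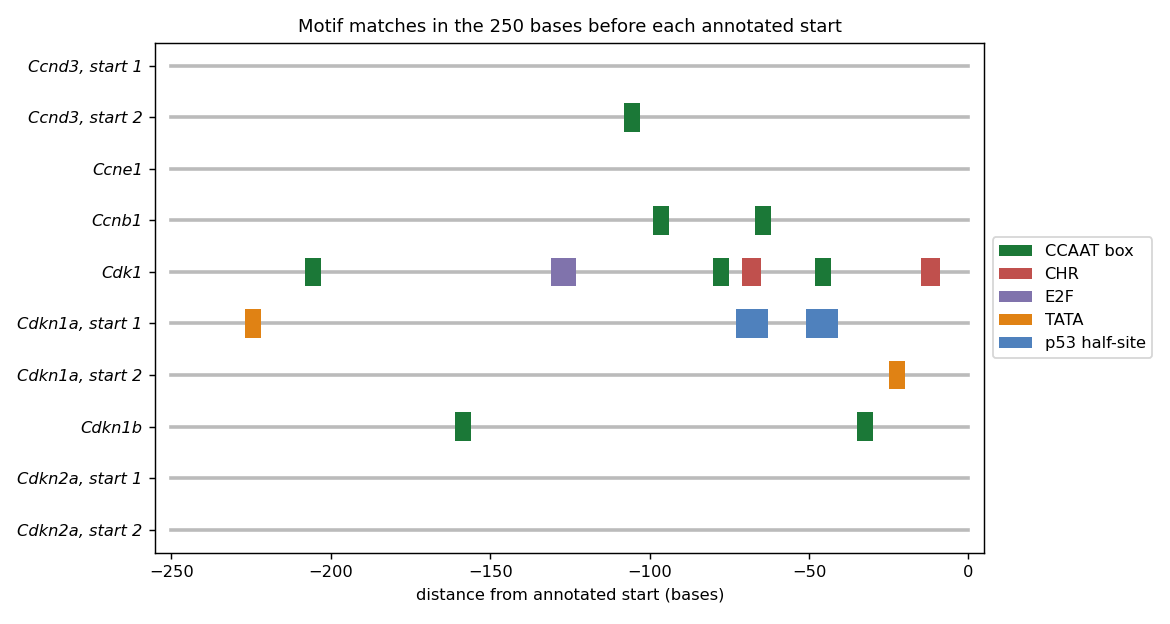
Motif matches in the 250 bases before each annotated start of the 7 members with a window; the horizontal axis is the distance from the start in bases and each row is 1 start. Cdk1 holds the most matches (3 CCAAT boxes, 2 CHR and 1 E2F), and the 2 p53 half-sites are those of Cdkn1a.

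Library totals ranged from 988210 to 10646768 counts. In 3 libraries at day 10, the 10 largest features held 70.4% (WT replicate 3), 60.2% (Sam68 KO replicate 2) and 64.4% (Sam68 KO replicate 3) of the counts, against at most 30.2% elsewhere, and every member count below is given for all libraries. Without those 3 libraries, the comparisons that do not use Sam68 KO at day 10 called as many members as with them. Sam68 KO at day 10 then keeps only replicate 1, so this check cannot speak for the comparisons that use that group. The shallowest after scaling was WT day 10 replicate 3, where Ccnb1 had 2 counts, Ccne1 13 and Ccna2 20. Sequencing pools, named in the sample descriptions, were shared by Quaking KO and WT at day 0 and by the 2 knockouts at day 10; in the other comparisons pool and group cannot be told apart. Ccnb1 and Ccnd3 have pseudogenes of the same name in the RefSeq annotation (Ccnb1-ps, Ccnd3-ps), which makes their counts less certain. Copies under other names were not searched for in any member.

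Between the days, 9 of 10 members changed in Quaking KO, 10 of 10 in Sam68 KO and 10 of 10 in WT (edgeR's quasi-likelihood test, adjusted p below 0.05 over all features). The background was high: 64.1% of all features were called in Quaking KO (34.7% higher, 29.4% lower), 65.3% in Sam68 KO (34.9% higher, 30.5% lower) and 65% in WT (34.9% higher, 30.1% lower), and the members' counts are read against it. Ccnd1, Ccne1, Ccna2, Ccnb1 and Cdk1 fell in each of the 3 lines, and Ccnd2, Cdkn1a, Cdkn1b and Cdkn2a rose in each. Over all features 22.5% fell and 25.1% rose in every line. The libraries of the days did not overlap for 10 of 10 members in each line. That also held for 65.2% of all features in Quaking KO, 69.9% in Sam68 KO and 67% in WT, so separate days are common in these data. The median log2 fold change of the members was -0.65 in Quaking KO, -0.87 in Sam68 KO and -0.80 in WT, where that of all features was 0.11, 0.11 and 0.10.

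**Figure D2:**
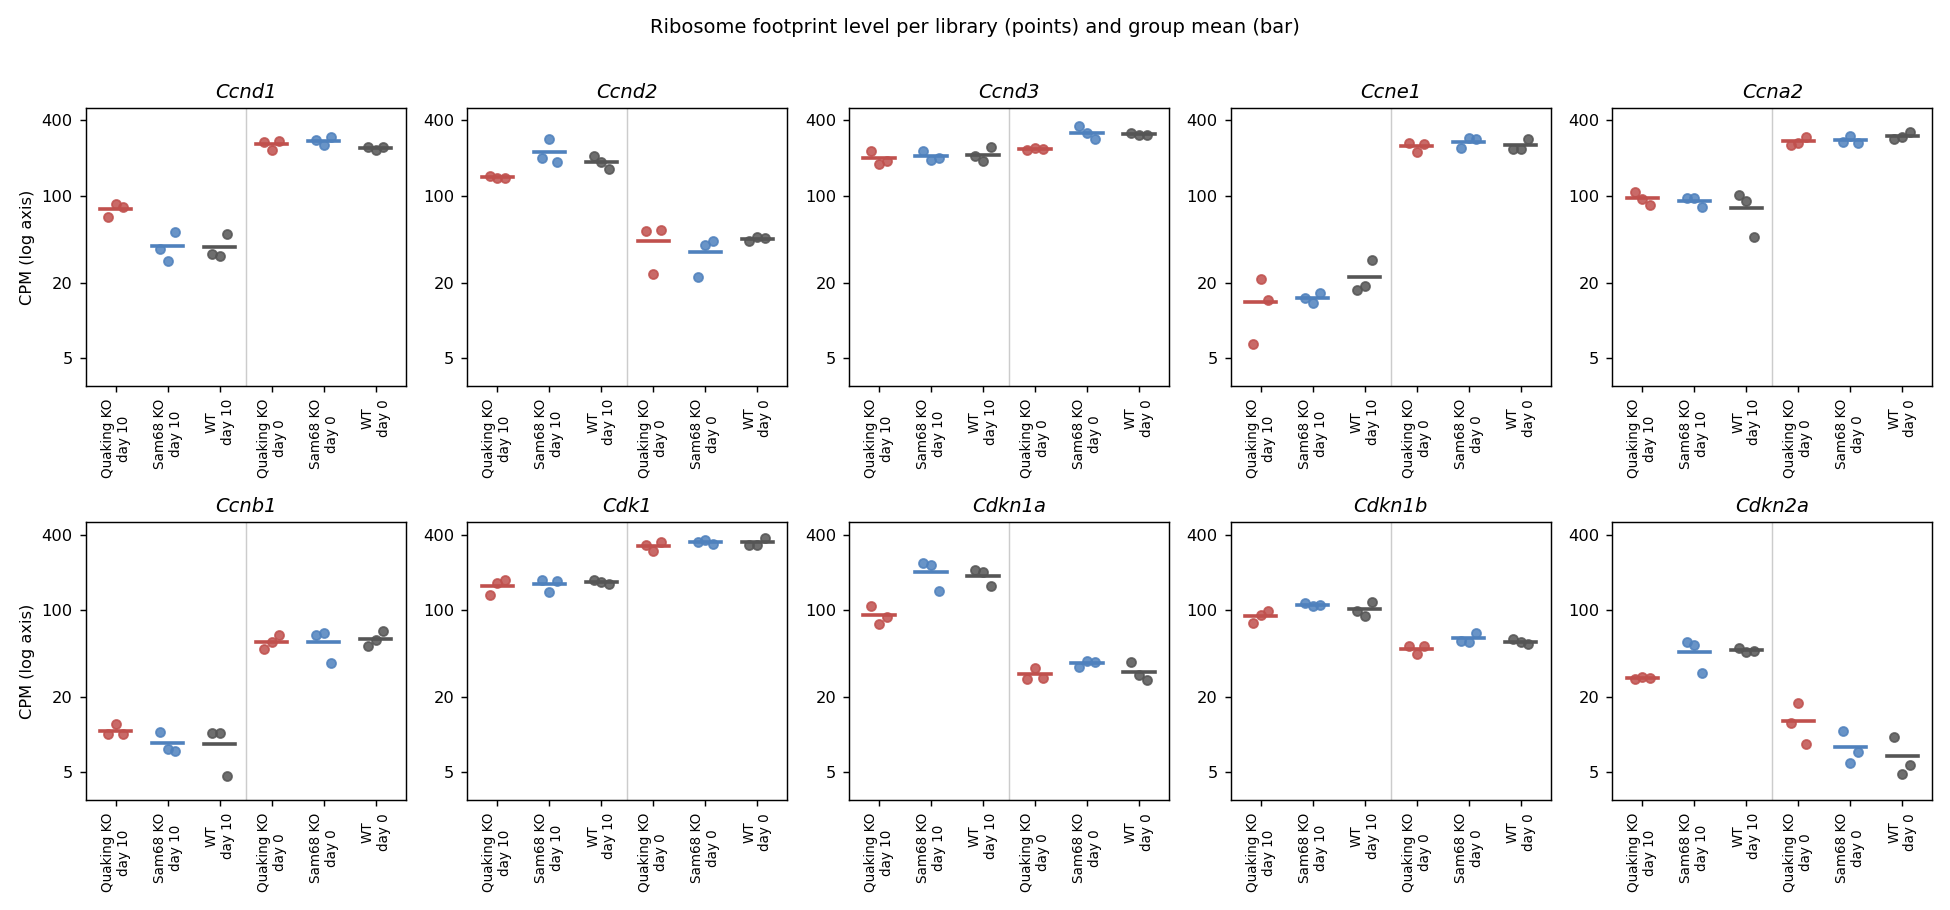
Scaled ribosome footprint level (CPM, log axis) of each member in every library, with a bar at the mean of each group of 3. Ccnd1, Ccne1, Ccna2, Ccnb1 and Cdk1 lie lower at day 10 than at day 0 in every line, and Ccnd2, Cdkn1a, Cdkn1b and Cdkn2a lie higher; at day 10 Ccnd1 is higher and Cdkn1a lower in Quaking KO than in the other lines.

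The D-type cyclins, which link growth signals to G1 kinase activity, moved in opposite directions. Ccnd1 (ENSMUSG00000070348, chr7:144929931-144939831) had 67.7, 85.2 and 81.6 CPM in Quaking KO at day 10, against 271, 233 and 274 CPM at day 0. In Sam68 KO it had 37.6, 30.1 and 50.9 CPM at day 10, against 279, 256 and 293 CPM at day 0. In WT it had 34.2, 33.2 and 49.3 CPM at day 10, against 247, 231 and 243 CPM at day 0. The days were far apart in every line, and the Quaking KO libraries at day 10 lay above all those of the other lines at that day. The log2 fold change of day 10 over day 0 was -1.72 ± 0.16 (SE, edgeR adjusted p 1.07e-09) in Quaking KO, -2.83 ± 0.17 (3.58e-13) in Sam68 KO and -2.72 ± 0.17 (1.23e-12) in WT.

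Ccnd2 (ENSMUSG00000000184, chr6:127125162-127152188) did the reverse. It had 145, 137 and 140 CPM in Quaking KO at day 10, against 52.5, 23.5 and 53.4 CPM at day 0. Sam68 KO had 199, 282 and 187 CPM at day 10, against 22.5, 40.7 and 43.4 CPM at day 0, and WT had 209, 185 and 162 CPM at day 10, against 43.7, 47.1 and 45.6 CPM at day 0. All libraries of day 10 lay above all of day 0, with the lowest values in Quaking KO day 0 replicate 2 and Sam68 KO day 0 replicate 1. Ccnd2 rose by a log2 fold change of 1.67 ± 0.26 (edgeR adjusted p 2.08e-05) in Quaking KO, 2.64 ± 0.26 (6.86e-08) in Sam68 KO and 2.04 ± 0.25 (1.57e-06) in WT.

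Ccnd3 (ENSMUSG00000034165, chr17:47505051-47599689) changed least of the 3. It ranged from 180 to 229 CPM in Quaking KO at day 10, against 232 to 241 CPM at day 0, and the log2 fold change of -0.25 ± 0.13 did not pass the test (edgeR adjusted p 0.0986, 95% interval -0.52 to 0.02). It fell in Sam68 KO by 0.63 ± 0.13 on the log2 scale (194 to 227 CPM at day 10, against 283 to 360 CPM at day 0, edgeR adjusted p 0.000178). It fell in WT by 0.55 ± 0.13 on the log2 scale (189 to 244 CPM at day 10, against 305 to 319 CPM at day 0, edgeR adjusted p 0.000774). The Quaking KO call depended on the fit: the edgeR adjusted p was 0.0365 without the filter on low counts and 0.0266 without Quaking KO day 10 replicate 1. It also passed when a library outside the comparison was left out. These were Sam68 KO day 10 replicate 1 (0.0256) and WT day 10 replicates 1 (0.0304), 2 (0.0279) and 3 (0.0487). In all, the call was made under 7 of 27 alternatives. With an additive pool term the edgeR adjusted p was 0.00184, but that is 1 day effect for all lines and no estimate for Quaking KO alone. The Quaking KO change enters it with a minus sign.

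The 3 genes' summed counts had another make-up at day 10. These shares are of raw counts, not corrected for gene length, so only the same gene's share is compared between groups. Ccnd1 made up 18.8% ± 3.07 of the D-type cyclin counts in Quaking KO at day 10 (SD, n = 3), against 48.1% ± 1.11 at day 0. In Sam68 KO it was 8.56% ± 2.87 at day 10, against 43.7% ± 3.12 at day 0, and in WT 8.86% ± 1.72 at day 10, against 40.3% ± 0.689 at day 0. The Ccnd1 share thus shrank in every line and at day 10 stayed highest in Quaking KO, whose lowest library (15.3%) lay above the highest of Sam68 KO (11.6%) and of WT (10.8%). Ccnd2 made up 33.7% ± 0.770 in Quaking KO at day 10, against 7.90% ± 2.74 at day 0. Its share was 47.1% ± 7.40 in Sam68 KO at day 10, against 5.68% ± 1.98 at day 0, and 42.4% ± 5.98 in WT at day 10, against 7.64% ± 0.452 at day 0. The mean Ccnd3 share was between 44.0% and 52.0% in all 6 groups. These shares are a description and were not tested.

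**Figure D3:**
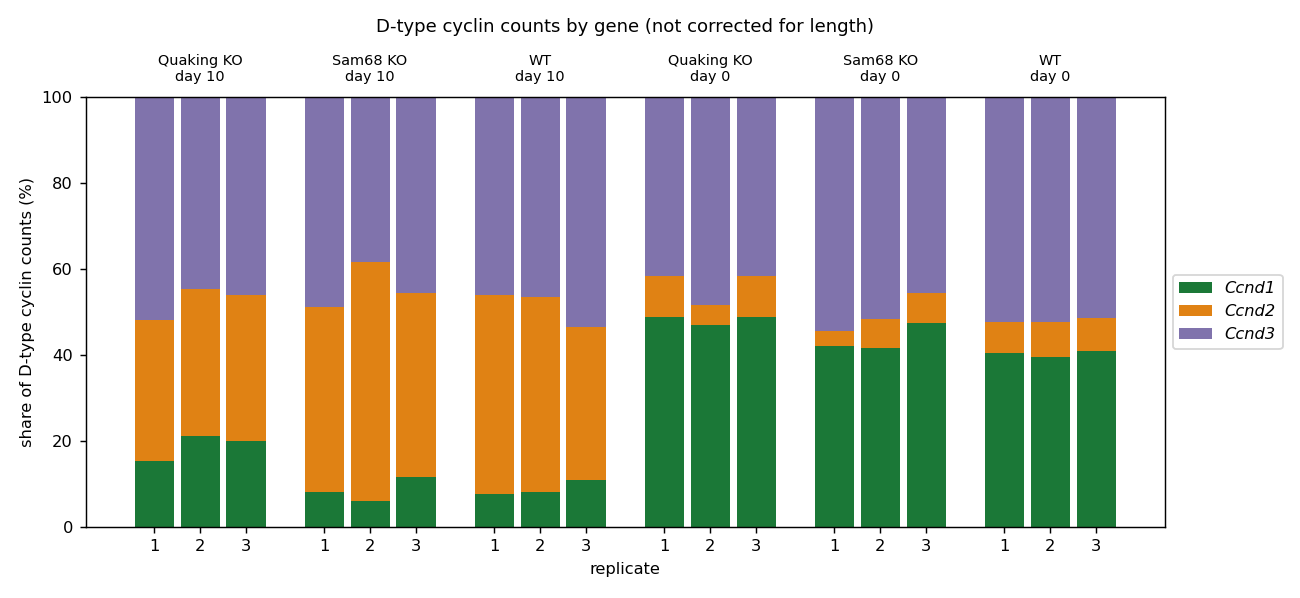
Share of each D-type cyclin gene in their summed counts (percent, not corrected for gene length), with 1 stacked bar per library. Ccnd2 takes a larger share and Ccnd1 a smaller one at day 10 in every line, and the Ccnd1 share at day 10 is largest in Quaking KO (15.3% to 21.2%).

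Ccne1 (ENSMUSG00000002068, chr7:38097984-38107490), cyclin E1, which activates Cdk2 at the G1 to S transition, had the largest log2 fold change of the 10 members in each line in the fit without a pool term. It had 6.49, 21.4 and 14.6 CPM in Quaking KO at day 10, against 263, 223 and 261 CPM at day 0. Sam68 KO had 15.2, 13.9 and 16.7 CPM at day 10, against 240, 289 and 282 CPM at day 0, and WT had 17.5, 18.8 and 30.5 CPM at day 10, against 235, 238 and 284 CPM at day 0. The lowest day 0 library was above the highest of day 10 in every line by a wide margin. Day 10 was 16.0-fold lower in Quaking KO (log2 fold change -4.00 ± 0.23, edgeR adjusted p 6.40e-13), 17.9-fold lower in Sam68 KO (-4.16 ± 0.23, 3.91e-13) and 12.7-fold lower in WT (-3.67 ± 0.23, 3.34e-12). Only 2.48% of all features had a lower log2 fold change in Quaking KO, 1.67% in Sam68 KO and 2.21% in WT.

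Ccna2 (ENSMUSG00000027715, chr3:36564865-36573038), the cyclin of S and G2 phase, ranged from 84.7 to 107 CPM in Quaking KO at day 10, against 257 to 294 CPM at day 0. It ranged from 80.6 to 95.8 CPM in Sam68 KO at day 10, against 266 to 299 CPM at day 0, and from 47.0 to 102 CPM in WT at day 10, against 286 to 321 CPM at day 0. The groups did not overlap, and the low WT value is that of replicate 3. Ccna2 fell in each line, with a log2 fold change of -1.52 ± 0.17 in Quaking KO (edgeR adjusted p 2.65e-08), -1.60 ± 0.17 in Sam68 KO (9.57e-09) and -1.83 ± 0.17 in WT (1.32e-09).

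Ccnb1 (ENSMUSG00000041431, chr13:100778739-100786486), the mitotic partner of Cdk1, had 10.2, 12.1 and 10.1 CPM in Quaking KO at day 10, against 48.3, 55.1 and 63.0 CPM at day 0. In Sam68 KO it had 10.6, 7.65 and 7.41 CPM at day 10, against 63.4, 65.5 and 37.8 CPM at day 0. In WT it had 10.3, 10.4 and 4.70 CPM at day 10, against 51.4, 57.3 and 67.6 CPM at day 0. The level at day 10 was low in every library and the days did not overlap. For Ccnb1 the log2 fold change was -2.34 ± 0.24 in Quaking KO (edgeR adjusted p 5.13e-09), -2.60 ± 0.23 in Sam68 KO (7.06e-10) and -2.57 ± 0.24 in WT (9.49e-10).

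Cdk1 (ENSMUSG00000019942, chr10:69335146-69352912), the mitotic kinase itself, fell in each line. It ranged from 132 to 172 CPM in Quaking KO at day 10, against 296 to 346 CPM at day 0, from 138 to 172 CPM in Sam68 KO at day 10, against 335 to 359 CPM at day 0, and from 160 to 173 CPM in WT at day 10, against 330 to 374 CPM at day 0. Day 10 over day 0 gave a log2 fold change of -1.05 ± 0.13 in Quaking KO (edgeR adjusted p 1.23e-07), -1.12 ± 0.13 in Sam68 KO (3.81e-08) and -1.05 ± 0.13 in WT (1.27e-07). The difference in the Cdk1 day change between Quaking KO and WT was 0.00 on the log2 scale, with a 95% interval of -0.37 to 0.37.

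Of the inhibitors, Cdkn1a (ENSMUSG00000023067, chr17:29090979-29100722) encodes p21, a Cip/Kip inhibitor and a well-known p53 target whose first start carries the p53 half-sites shown above. It had 107, 77.5 and 88.3 CPM in Quaking KO at day 10, against 28.0, 34.5 and 28.7 CPM at day 0. Sam68 KO had 236, 226 and 141 CPM at day 10, against 34.6, 38.8 and 38.6 CPM at day 0, and WT had 207, 202 and 155 CPM at day 10, against 38.5, 30.2 and 27.6 CPM at day 0. Each line was higher at day 10 in every library, and the Quaking KO libraries at day 10 were the lowest of that day. The log2 fold change was 1.57 ± 0.19 in Quaking KO (edgeR adjusted p 1.23e-07), 2.44 ± 0.18 in Sam68 KO (2.71e-11) and 2.58 ± 0.19 in WT (1.24e-11).

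Cdkn1b (ENSMUSG00000003031, chr6:134920401-134925525), which encodes the Cip/Kip inhibitor p27, rose by a similar amount in each line. It ranged from 77.9 to 98.4 CPM in Quaking KO at day 10, against 44.2 to 51.6 CPM at day 0, from 107 to 113 CPM in Sam68 KO at day 10, against 55.2 to 65.3 CPM at day 0, and from 89.9 to 115 CPM in WT at day 10, against 53.3 to 58.8 CPM at day 0. Its log2 fold change was 0.87 ± 0.14 in Quaking KO (edgeR adjusted p 7.61e-06), 0.90 ± 0.13 in Sam68 KO (2.63e-06) and 0.83 ± 0.14 in WT (1.09e-05).

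Cdkn2a (ENSMUSG00000044303, chr4:89274473-89294619) encodes an Ink4 inhibitor and the unrelated protein Arf from separate first exons, which counts per gene cannot tell apart. It had 27.8, 29.2 and 28.3 CPM in Quaking KO at day 10, against 12.5, 17.8 and 8.43 CPM at day 0. Sam68 KO had 54.8, 52.1 and 31.5 CPM at day 10, against 10.7, 5.92 and 7.24 CPM at day 0, and WT had 49.8, 46.3 and 47.0 CPM at day 10, against 9.59, 4.89 and 5.74 CPM at day 0. The Quaking KO group was lowest at day 10 and had the highest mean at day 0. Cdkn2a rose in each line, with a log2 fold change of 1.19 ± 0.28 in Quaking KO (edgeR adjusted p 0.000789), 2.60 ± 0.27 in Sam68 KO (6.37e-09) and 2.84 ± 0.27 in WT (1.88e-09).

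**Figure D4:**
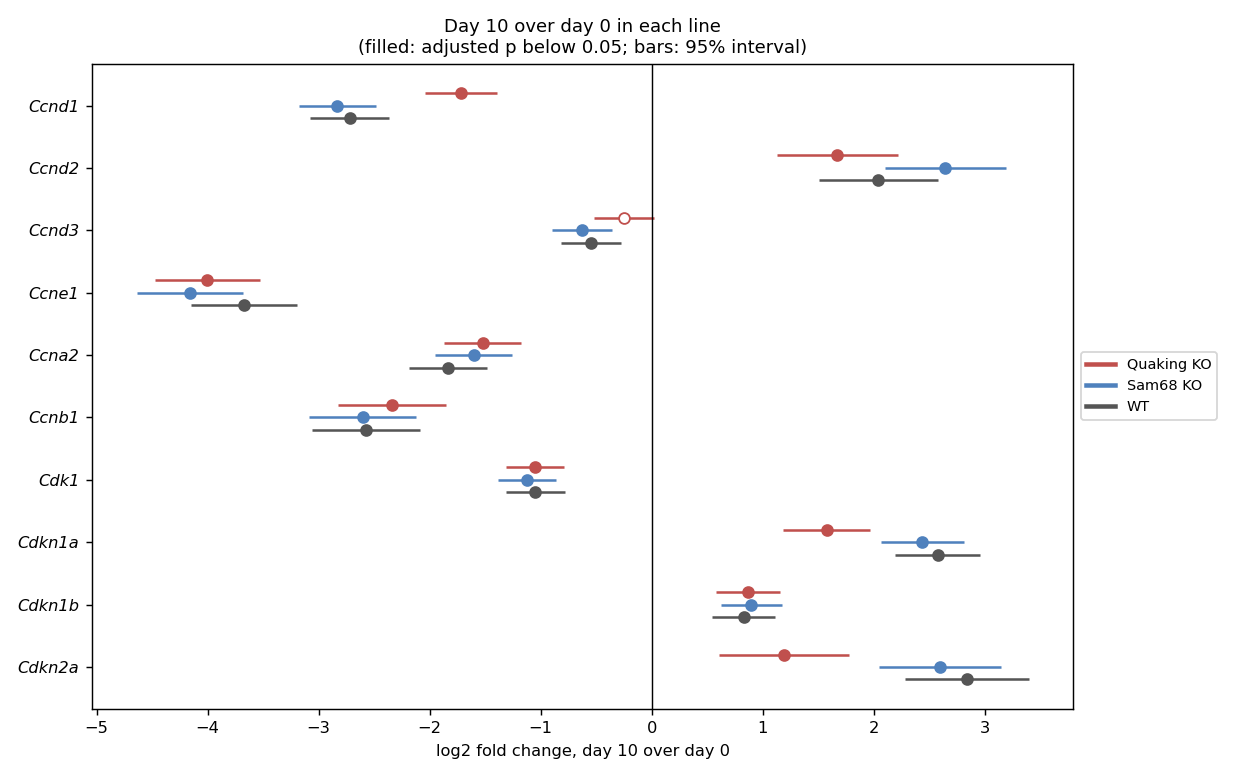
Log2 fold change of day 10 over day 0 for each member in Quaking KO, Sam68 KO and WT; bars are 95% intervals and filled points have an edgeR adjusted p below 0.05. All members but Ccnd3 in Quaking KO are filled. The Quaking KO points of Ccnd1, Cdkn1a and Cdkn2a lie nearer to 0 than those of the other lines. By smaller margins, so do those of Ccnd2, Ccnd3, Ccna2 and Ccnb1. For Cdk1 the Quaking KO and WT points are level, and for Ccne1 and Cdkn1b the Quaking KO point lies between the others.

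Day and pool are tied in every line. An additive model of line, day and pool, which allows 1 day effect for all lines, kept the direction of every member and called all 10, Ccnd3 included (-0.93, edgeR adjusted p 0.00184). Over all features it called 5570 of 13701 (2654 higher, 2916 lower). By its design this day effect is the sum of the WT and Sam68 KO changes less the Quaking KO change. A smaller Quaking KO change thus makes it larger, and the kept directions follow from the changes of the separate lines. The model has as many terms as there are groups, so any day change that differs between lines is taken up as pool. Such differences and pool thus cannot be told apart in the model, and it is no independent check of the day changes. It gave log2 changes past those of the separate lines for Ccnd1 (-3.83), Ccnd2 (3.01), Ccna2 (-1.91), Ccnb1 (-2.84), Cdkn1a (3.44) and Cdkn2a (4.24). Ccne1 was at -3.83, Cdk1 at -1.12 and Cdkn1b at 0.86, so that Ccne1 no longer had the largest change.

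At day 0, 0 of 10 members were called in Quaking KO against WT (edgeR; DESeq2 also called 0), where 0.365% of all features were (0% higher, 0.365% lower), or 937 features at an unadjusted p under 0.05. Both groups share a pool. The libraries of 2 members, Ccnd3 and Cdkn1b, did not overlap between the groups, as was the case for 19% of all features. Ccnd3 had 232, 241 and 235 CPM in Quaking KO, against 319, 305 and 305 CPM in WT, with a log2 fold change of -0.39 ± 0.13 and an edgeR adjusted p of 0.338. The median log2 fold change of all features was -0.09 here, and -0.001 with RLE scaling. Cdkn1b had a log2 fold change of -0.18 ± 0.14 (edgeR adjusted p 0.955). That of Cdkn2a was 0.90 ± 0.29 (adjusted p 0.319), and the groups overlapped. In Sam68 KO against WT at day 0, likewise 0 of 10 members were called (edgeR and DESeq2), where 1.26% of all features were (0.62% higher, 0.642% lower), or 1308 at an unadjusted p under 0.05. These groups lay in different pools. The additive pool model has 1 Sam68 KO effect for both days, which was called for 1201 of 13701 features (509 higher, 692 lower). Among the members it was called for Ccnd1 (-0.91, against 0.20 here), Cdkn1a (1.09) and Cdkn2a (1.64). That effect is by design the sum of Sam68 KO over Quaking KO at day 10 and Quaking KO over WT at day 0. The libraries of 2 members, Ccnd1 and Ccnd2, did not overlap between Sam68 KO and WT at day 0, as was the case for 21.7% of all features. The member furthest from 0 was Ccnd2, with a log2 fold change of -0.35 and a 95% interval of -0.87 to 0.17. The interval for Cdk1 was -0.25 to 0.26 and that for Ccne1 -0.29 to 0.49.

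At day 10, 3 of 10 members were called in Quaking KO against WT, 1 higher and 2 lower, where 23.9% of all features were called (11.1% higher and 12.8% lower); the count of members is near that background. Ccnd1 was 2.16-fold higher in Quaking KO (78.2 ± 9.23 CPM in Quaking KO and 38.9 ± 9.04 CPM in WT, SD, n = 3 each), with a log2 fold change of 1.11 ± 0.17 and an edgeR adjusted p of 2.52e-05. Cdkn1a was 2.12-fold lower (90.8 ± 14.8 CPM in Quaking KO and 188 ± 28.6 CPM in WT), with a log2 fold change of -1.09 ± 0.18 and an edgeR adjusted p of 7.19e-05. Neither gene's libraries overlapped between the groups (31.2% of all features did not), and both calls held under each of the 26 alternatives that apply. Cdkn2a was 1.68-fold lower (28.4 ± 0.683 CPM in Quaking KO and 47.7 ± 1.84 CPM in WT; log2 fold change -0.75 ± 0.26, edgeR adjusted p 0.0394). That call held under 13 of 26 alternatives, with adjusted p between 0.0271 and 0.122; it was lost with DESeq2 (0.0837) and without WT day 10 replicate 1 (0.122). Ccnd2 was at 137 to 145 CPM in Quaking KO and 162 to 209 CPM in WT, without overlap, and did not pass (log2 fold change -0.42, adjusted p 0.250, 95% interval -0.94 to 0.11). Ccnd3, Ccna2, Ccnb1, Cdk1 and Cdkn1b gave log2 fold changes of -0.09, 0.17, 0.15, -0.09 and -0.14, none of which passed; the 95% interval for Cdk1 was -0.36 to 0.18. The Ccne1 difference of -0.35 passed (-0.75, adjusted p 0.0388) when Quaking KO day 10 replicate 2 was left out.

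In Sam68 KO against WT at day 10, 0 of 10 members were called (edgeR and DESeq2), where 0.175% of all features were (0.073% higher, 0.102% lower), or 925 at an unadjusted p under 0.05. Ccnd1 had a log2 fold change of 0.09 with a 95% interval of -0.27 to 0.45, Cdkn1a of 0.09 with -0.27 to 0.45, and Cdkn2a of -0.01 with -0.53 to 0.51. The member furthest from 0 was Ccne1, at -0.39 (95% interval -0.89 to 0.12). These groups too lay in different pools, and the Sam68 KO effect of the additive pool model given for day 0 applies to both days.

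**Figure D5:**
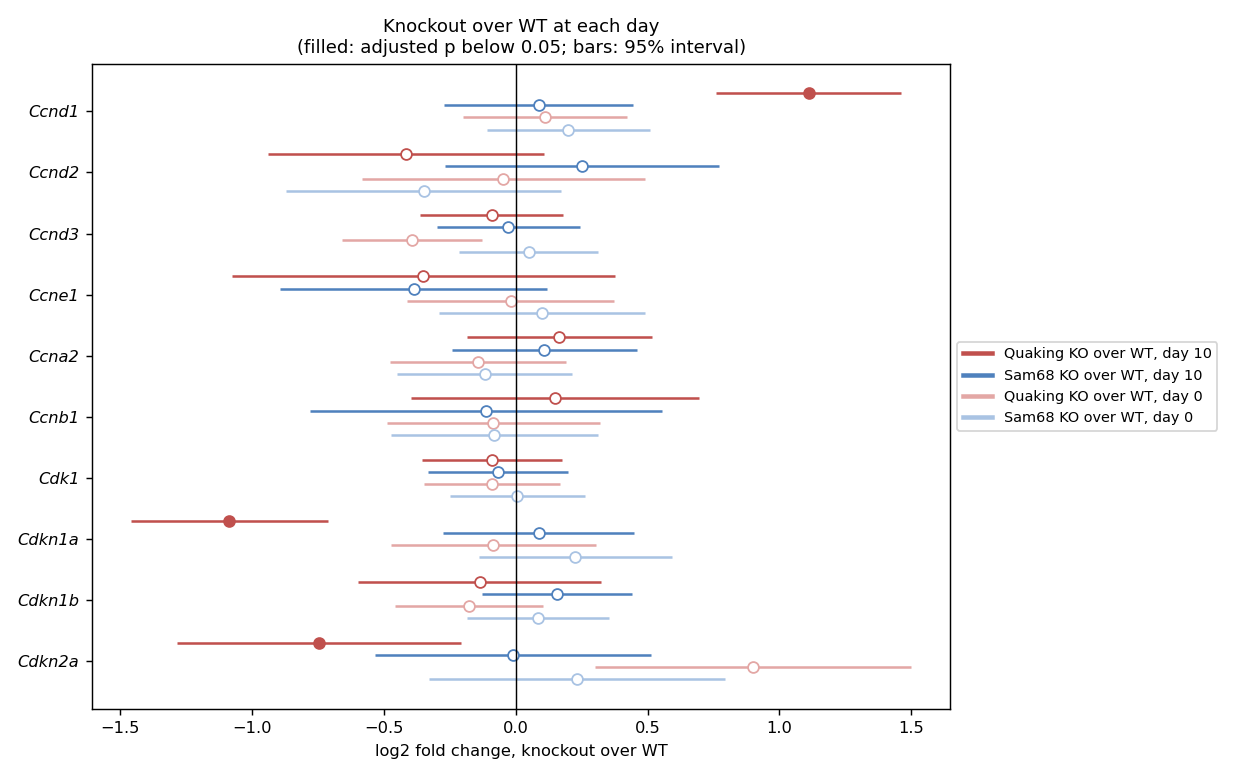
Log2 fold change of knockout over WT for each member, for Quaking KO and Sam68 KO at day 10 and day 0; bars are 95% intervals and filled points have an edgeR adjusted p below 0.05. The filled points are Ccnd1 (1.11), Cdkn1a (-1.09) and Cdkn2a (-0.75), all in Quaking KO at day 10.

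The knockouts were also set against each other at day 10, where both lay in 1 pool; this comparison uses the same Quaking KO libraries as the one with WT. In Sam68 KO against Quaking KO, 3 of 10 members were called, 2 higher and 1 lower, where 23.7% of all features were (13% higher and 10.6% lower). Ccnd1 was lower in Sam68 KO (39.5 ± 10.5 CPM in Sam68 KO and 78.2 ± 9.23 CPM in Quaking KO; log2 fold change -1.02 ± 0.17, edgeR adjusted p 4.78e-05). Cdkn1a was higher in Sam68 KO (201 ± 52.4 CPM in Sam68 KO and 90.8 ± 14.8 CPM in Quaking KO; log2 fold change 1.17 ± 0.18, edgeR adjusted p 2.37e-05). Cdkn2a was higher too (46.1 ± 12.8 CPM in Sam68 KO and 28.4 ± 0.683 CPM in Quaking KO; log2 fold change 0.74 ± 0.26, edgeR adjusted p 0.0388), in 16 of 26 alternatives, and was not called without Sam68 KO day 10 replicate 1 (adjusted p 0.192). Ccnd2 was 187 to 282 CPM in Sam68 KO and 137 to 145 CPM in Quaking KO, without overlap (as for 33.7% of all features), and did not pass (log2 fold change 0.67 ± 0.25, adjusted p 0.0597); fitting only the compared groups gave 0.00894.

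Whether the day change itself differed between a knockout and WT was tested as an interaction. For Quaking KO, 3 of 10 members were called, 1 higher and 2 lower, where 8.88% of all features were (5.12% higher, 3.76% lower). The change of Ccnd1 was less negative than in WT by 1.00 ± 0.23 on the log2 scale (edgeR adjusted p 0.00526). The rise of Cdkn1a was smaller (interaction -1.002 ± 0.26, adjusted p 0.0143), and so was that of Cdkn2a (-1.65 ± 0.39, adjusted p 0.00760). The Cdkn1a interaction was not called without WT day 0 replicate 3 (adjusted p 0.0520). For Ccne1 the interaction was -0.33 (95% interval -1.22 to 0.56), for Ccnb1 0.23 (-0.45 to 0.91) and for Cdkn1b 0.04 (-0.36 to 0.44), none called. For Sam68 KO, 0 of 10 members were called (edgeR and DESeq2), where 0.431% of all features were (0.131% higher, 0.299% lower), or 1231 at an unadjusted p under 0.05; Ccnd2 was furthest from 0, at 0.60 (95% interval -0.14 to 1.34).

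Other genes of the cell cycle were read from the mouse phase markers distributed with scran, which carry identifiers, keeping genes that mark 1 phase and leaving out the members. Of the 28 tested G2/M genes, 16 fell and 4 rose between the days in Quaking KO, 20 fell and 2 rose in Sam68 KO, and 18 fell and 4 rose in WT. Their median log2 fold change was -0.72 in Quaking KO, -0.76 in Sam68 KO and -0.73 in WT, where that of all features was 0.11, 0.11 and 0.10. Over all features, 29.4% to 30.5% fell and 34.7% to 34.9% rose, against which 57.1% to 71.4% of the G2/M genes fell. Of the 35 S phase genes, 8 fell and 12 rose in Quaking KO, 10 fell and 12 rose in Sam68 KO, and 7 fell and 10 rose in WT, or 20% to 28.6% that fell and 28.6% to 34.3% that rose. Of the 11 G1 genes, 6 fell and 1 rose in Quaking KO, 6 fell and 1 rose in Sam68 KO, and 7 fell and 1 rose in WT, or 54.5% to 63.6% that fell. The median log2 fold change of the G1 genes was -1.62 in Quaking KO, -1.63 in Sam68 KO and -1.39 in WT, further from 0 than that of the G2/M genes. Ccnb1, which scran lists for G2/M alone, moved in the direction of most of the G2/M genes, which was also that of most of the G1 genes. In Quaking KO against WT at day 10, 4 G2/M genes were higher and 3 lower, with a median log2 fold change of 0.02 beside -0.03 for all features. Of the S phase genes 4 were higher and 3 lower (median 0.00), and of the G1 genes 0 were higher and 3 lower (median -0.27).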

How the data were processed

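Ribosome profiling was done on 18 libraries, 3 in each of 6 groups, taken from the sample labels. The submitters' processing notes name STAR 2.5.3a, Bowtie2 and bcl2fastq 2.17.1.14, and the builds mm10 and GRCm38. How strand was handled, the counter and the annotation release were not given in the sources used here. The files deposited by the authors hold unnormalized whole-number counts for 51826 Ensembl IDs; in them, counts of overlapping, antisense and near-identical genes are uncertain. Totals ranged from 988210 to 10646768.

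From these counts, edgeR 4.0.16 (R 4.3.3) fitted all 18 libraries with 1 mean per group (robust quasi-likelihood fit, TMM scaling, filter on low counts by group, 13701 features kept with at least 99.4% of each library's counts, common biological coefficient of variation 0.229). Calls used a Benjamini-Hochberg adjusted p below 0.05 over all features, two-sided, in 10 comparisons. Standard errors and 95% intervals follow from the p-value and its degrees of freedom. CPM are TMM-scaled. The test was checked on simulated counts, which had the same spread for all features and changes in 1 group only. That check does not cover changes as wide as those between the days here. Every replicate pair differed by more than sampling noise (the lowest chi-square was 4.80 per degree of freedom). Libraries were not treated as paired by replicate number: deviations of same-numbered libraries correlated between -0.18 and 0.44, and in 0 comparisons were all 3 pairs over 0.1. With 3 libraries per group, that check cannot exclude pairing.

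The text names all 10 members and, for Ccnb1 and for Cdkn1a, the 2 features nearest in pattern. Members and lists were chosen with earlier results of these data known. Symbols of the other features, a pathway list by symbol, cell type markers and gene lengths could not be used, since the RefSeq table (49997 genes) held 0 Ensembl IDs; the phase markers of scran 1.30.0 took the pathway list's place. Alternatives were upper quartile and RLE scaling, no filter, DESeq2 1.42.0, only the compared groups, a replicate block, a pool term, thinning to the smallest library, leaving out 3 dominated libraries, and leaving out each library.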

Additional observations from a re-analysis of the deposited data

Results flagged for a closer look

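The change between the days differed between Quaking KO and WT in 3 of 10 members, by the interaction term of the edgeR fit, where 8.88% of all features were called. The interaction was 1.00 for Ccnd1 (adjusted p 0.00526), -1.002 for Cdkn1a (adjusted p 0.0143) and -1.65 for Cdkn2a (adjusted p 0.00760) on the log2 scale. The knockouts differed from each other at day 10 in the same members, tested directly within 1 pool: on the log2 scale, Sam68 KO over Quaking KO was -1.02 for Ccnd1, 1.17 for Cdkn1a and 0.74 for Cdkn2a. In that comparison 23.7% of all features were called, a share the 3 of 10 members are near, and the Cdkn2a call held in 16 of 26 alternatives. Both sets of results use the Quaking KO libraries of day 10. Groups of 3 libraries are too small for a search for single outlying libraries.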

How the results depend on the processing

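Of the member results (10 genes in 10 comparisons), 38 were called. For the changes between the days, the alternatives included the additive pool model, whose 1 day effect is the same for all lines. The Quaking KO change enters that effect with a minus sign, so it is no check of the Quaking KO results. Of the 38, 35 passed the threshold under each of the alternatives run, and 0 changed sign. The exceptions were Cdkn2a in Quaking KO against WT and in Sam68 KO against Quaking KO at day 10, and the Cdkn1a interaction of Quaking KO, which was lost on thinning (adjusted p 0.0600) and without WT day 0 replicate 3 (0.0520). Among the 62 results not called, 35 had another sign under at least 1 alternative with neither value past the threshold. The additive pool model, which gives 1 effect per line for both days, called 3 members in Sam68 KO against WT (2 higher, 1 lower), against 0 at day 10 and 0 at day 0. Over all features it called 1201 of 13701 (509 higher, 692 lower), against 24 at day 10 and 173 at day 0, so calls rose over all features too. Ccnd1 was -0.91 in that model, against 0.09 at day 10 and 0.20 at day 0, and Cdkn2a 1.64, against -0.01 at day 10. By its design that effect is the sum of Sam68 KO over Quaking KO at day 10 and Quaking KO over WT at day 0. For Ccnd1 these were -1.02 and 0.11, for Cdkn1a 1.17 and -0.08, and for Cdkn2a 0.74 and 0.90. It is therefore no direct measure of Sam68 KO against WT, and an effect of pool was not tested. Leaving out single libraries gave 9 to 10 members in Quaking KO between the days, 2 to 3 in Quaking KO against WT at day 10, 2 to 4 in Sam68 KO against Quaking KO and 2 to 3 in the Quaking KO interaction. Of the 13701 features, 8039 to 8926, 2378 to 3284, 2304 to 3629 and 908 to 1246 were called, in the same order. The other member counts did not move.

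With the replicate block, 2 members were called in Quaking KO against WT at day 10 (Cdkn2a -0.66, edgeR adjusted p 0.0534), where 3068 of 13701 features were, against 3279 without the block. The member counts of the other comparisons were as without it.

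Counts over all features that moved by over 1.5 times were 5570 with the pool term in each line between the days (8777 in Quaking KO, 8948 in Sam68 KO, 8905 in WT); 13 to 95 for Quaking KO against WT at day 0 (50); 1887 with only the compared groups and 2149 on thinning for Quaking KO against WT at day 10 (3279); 70 to 1201 for Sam68 KO against WT at day 0 (173) and 8 to 1201 at day 10 (24); 1998 on thinning for Sam68 KO against Quaking KO (3242); and, for the interactions, 584 on thinning in the Quaking KO term (1216) and 12 to 129 in the Sam68 KO term (59). The counts 5570 and 1201 come from the additive pool model. Its 1 day effect is shared by all lines, and its 1 Sam68 KO effect by both days. RLE scaling gave 1505 higher and 1875 lower features in Sam68 KO against Quaking KO, against 1787 and 1455, and 1820 higher and 1513 lower in Quaking KO against WT at day 10, against 1523 and 1756. D-cyclin shares were computed on raw counts only, as no gene lengths were given. Depth limits Ccnb1 most, with 2 counts in WT day 10 replicate 3, where 3 counts are 7.05 CPM.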

Other observations

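Among 8898 features with a mean of 10 CPM or more over all libraries, the pattern over the 6 group means nearest to Ccnb1 was that of ENSMUSG00000010554, with a root-mean-square difference of 0.068 in log2 CPM after centring, followed by ENSMUSG00000038518 (0.0974). ENSMUSG00000010554 averaged 18.8 ± 3.05, 14.2 ± 3.64 and 15.7 ± 5.49 CPM (SD, n = 3) in Quaking KO, Sam68 KO and WT at day 10, against 91.4 ± 12.5, 94.9 ± 9.64 and 93.8 ± 4.65 CPM at day 0. The nearest to Cdkn1a were ENSMUSG00000033540 (0.0921) and ENSMUSG00000039089 (0.0941). ENSMUSG00000039089 averaged 27.7 ± 5.78, 52.8 ± 8.68 and 54.2 ± 3.23 CPM in Quaking KO, Sam68 KO and WT at day 10, against 9.33 ± 2.71, 9.72 ± 2.71 and 8.46 ± 1.92 CPM at day 0. The tables used here pair none of these identifiers with a name.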
